A study of Mus musculus with 8 samples.

Results

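The AP-1 family comprises the transcription factors that bind DNA as pairs of Fos, Jun and ATF-type proteins. The members were named as Fos, Fosb, Fosl1, Fosl2, Jun, Junb, Jund and Atf3, and each was read from the probe set that the platform annotation gives to that gene alone. This left 7 of the 8 members, among 18782 genes that could be named in this way, and each of the 7 had 1 such probe set. Both probe sets of Fosl1 are also assigned to Ccdc85b, so Fosl1 has no value of its own here.

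The samples were thoracic perivascular adipose tissue, the fat around the thoracic aorta, from male mice aged 17 to 22 weeks, with 1 Affymetrix Mouse Gene 1.1 ST array for each of 4 RictoraP2KO and 4 control samples. RictoraP2KO names a deletion of Rictor, the defining subunit of mTOR complex 2, by a recombinase under the aP2 (Fabp4) promoter, which is active in fat cells but not in them alone, and the series title places the deletion in brain and fat. The control genotype is given as Rictorfl/fl. Per the labels' protocols all mice were fasted overnight and killed at 9 am, and the aorta with its fat was put into ice-cold buffer and cleaned before the fat was frozen. The labels give no time from death to freezing. They also do not say that each sample is a separate animal, so a p-value here speaks only of spread among these arrays, which may be technical.

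Most AP-1 genes are immediate early genes. Their transcription starts within minutes of a stimulus such as a growth factor, stress or mechanical injury, through factors such as SRF and CREB that are present before the stimulus and are activated by kinases, MAP kinases among them. Fos proteins bind DNA mostly paired with a Jun protein, while Jun proteins also pair with each other. In fat, FOSL2 and other members act in fat cell differentiation and in the control of adipokine genes, and in any tissue dissected fresh the mRNAs of Fos, Jun and Egr genes can rise during handling.

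The stretches of DNA before the start of 5 members are shown because these are the genes on which the results below turn, Fosb for its difference between the groups, and Fos, Junb, Jun and Atf3 for their variation from array to array. Each is the 250 bases before the start of the RefSeq gene in assembly GRCm38.p6, read along the strand of the gene. Fos lies on chromosome 12 (chr12:85473640-85473889, plus strand), Fosb on chromosome 7 (chr7:19310046-19310295, minus strand), Junb on chromosome 8 (chr8:84978749-84978998, minus strand), Jun on chromosome 4 (chr4:95052223-95052472, minus strand) and Atf3 on chromosome 1 (chr1:191183334-191183583, minus strand). Capitals mark TGACG on either strand, the core of the cAMP response element bound by CREB and ATF proteins, TATAAA, and TGACATCA, an AP-1-like site.
Fos: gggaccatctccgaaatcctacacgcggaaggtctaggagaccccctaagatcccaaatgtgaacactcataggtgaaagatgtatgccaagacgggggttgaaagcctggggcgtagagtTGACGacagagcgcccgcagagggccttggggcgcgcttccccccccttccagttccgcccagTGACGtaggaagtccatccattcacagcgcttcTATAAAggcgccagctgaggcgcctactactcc
Fosb: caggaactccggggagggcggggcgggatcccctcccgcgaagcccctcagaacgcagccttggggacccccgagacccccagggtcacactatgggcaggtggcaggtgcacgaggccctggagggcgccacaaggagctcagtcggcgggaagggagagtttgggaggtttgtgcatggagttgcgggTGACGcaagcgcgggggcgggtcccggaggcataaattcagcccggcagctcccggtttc
Junb: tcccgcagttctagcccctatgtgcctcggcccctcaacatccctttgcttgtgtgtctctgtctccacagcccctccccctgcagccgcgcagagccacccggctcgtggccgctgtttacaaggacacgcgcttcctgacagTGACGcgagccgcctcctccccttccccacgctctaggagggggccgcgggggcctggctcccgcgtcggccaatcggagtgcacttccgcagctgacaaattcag
Jun: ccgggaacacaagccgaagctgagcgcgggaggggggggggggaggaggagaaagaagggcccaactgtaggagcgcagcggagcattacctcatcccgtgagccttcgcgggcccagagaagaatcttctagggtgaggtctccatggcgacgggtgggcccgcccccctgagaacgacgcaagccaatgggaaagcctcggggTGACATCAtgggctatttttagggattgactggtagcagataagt
Atf3: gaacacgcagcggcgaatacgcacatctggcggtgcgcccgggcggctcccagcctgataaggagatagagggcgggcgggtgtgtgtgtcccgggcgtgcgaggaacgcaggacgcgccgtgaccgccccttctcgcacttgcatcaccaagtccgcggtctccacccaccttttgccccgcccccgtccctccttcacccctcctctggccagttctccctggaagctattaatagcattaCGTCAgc

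All motifs were searched on both strands. TGACG was present in 4 of the 7 members with such a stretch, against 17.8% of 32851 RefSeq promoters of the same length. In Fos it began 129 and 66 bases before the start and in Fosb 60 bases before it, in Junb 106 bases before it, and in Atf3 the reverse form CGTCA began 7 bases before the start. TATAAA was found in Fos only, 33 bases before the start, against 12.4% of all promoters. TGACATCA, searched for after the Jun stretch had been seen, was found in Jun only, 45 bases before the start, against 2.93%. The full palindrome TGACGTCA, which contains TGACG, was in 0 of the 7 members against 1.55% of all promoters, TGANTCA, the site that AP-1 itself binds, in 0 of 7 against 6.75%, and the CArG box, the site of SRF, in 0 of 7 against 1.47%. CCAAT, which shares no letters with the other matches in these stretches, stood in Jun and Junb, against 33.8% of all promoters. TGACG holds the letters CG, which stood 15 times in the stretch of Fos, 19 in Fosb, 20 in Junb and 24 in Atf3. The median over all promoters was 6. Of the members without TGACG, Jun had 15, Fosl2 23 and Jund 3. The GC share was above the promoter median of 52.4% in 6 of the 7 members, and the shares over all promoters were not matched for it. A match is a description of these letters alone, and sites farther from the start were not searched.

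Values are log2 RMA signals as deposited, and each difference is the RictoraP2KO mean less the control mean in log2 units, with a standard error (SE) from limma fitted over 28371 probe sets. A level of 1 probe set cannot be set against that of another, so levels are compared between arrays and not between genes. Of all probe sets, 0.00352% passed an adjusted p of 0.05, which is 1 of 28371 and no AP-1 gene. The Rictor signal was 6.68 ± 0.08 (SD, n = 4) in the arrays labelled RictoraP2KO and 6.54 ± 0.06 (SD, n = 4) in the control arrays, so it was higher by 0.14 where the label would have it lower (limma SE 0.063, adjusted p = 0.685). The position of this probe set relative to the deleted part of Rictor is not known here, so the genotype was not checked, and RictoraP2KO below means the arrays labelled so. Of 8 adipocyte markers 7 had means above the array median, and the brown fat markers Ucp1 and Cidea lay between 10.7 and 12.0. A total of 3 arrays stood apart by signal of skeletal muscle, lung epithelium or neurons, and are called below the arrays with signal of other tissues. In RictoraP2KO replicate 2 the mean of 6 skeletal muscle markers was 1.30 above the mean of all arrays, in control replicate 2 that of 5 lung epithelial markers 3.24 above it, and in control replicate 3 that of 7 neuron markers 1.23 above it. RictoraP2KO replicate 1 had the lowest mean of the 7 brown fat markers, -0.685 relative to all arrays, and the highest of the 8 adipocyte markers, 0.277. It was kept in the results below that leave out those 3 arrays. Cardiac muscle signal was not confined to them, since all 5 measured cardiac markers had means above the array median. Among the arrays kept, the mean of these markers relative to all arrays ran from -1.575 in RictoraP2KO replicate 1 to 0.32 in control replicate 1. In bulk tissue, fewer cells of a type and less RNA per cell cannot be told apart.

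No AP-1 gene passed the test across all probe sets, and Fosb was the only member whose groups did not overlap. Of the 7 measured members, 6 had lower means in RictoraP2KO and 1, Fosl2, a higher one, with a median difference of -0.11 against -0.0080 over all 18782 genes. That median was not stable, since it ran from -0.36 without RictoraP2KO replicate 2 to 0.04 without RictoraP2KO replicate 3. An unadjusted p under 0.05 was reached by 1 of 7 members, Fosb, where it was reached by 6.48% of genes, 3.56% with lower and 2.92% with higher means in RictoraP2KO. The groups did not overlap for 1 of 7 members, again Fosb, where this held for 3.57% of all genes, and with RictoraP2KO lower for 2.07% of all genes. The exact two-sided permutation test of single values has 70 assignments of the labels and cannot give a p below 0.0286.

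**Figure D1:**
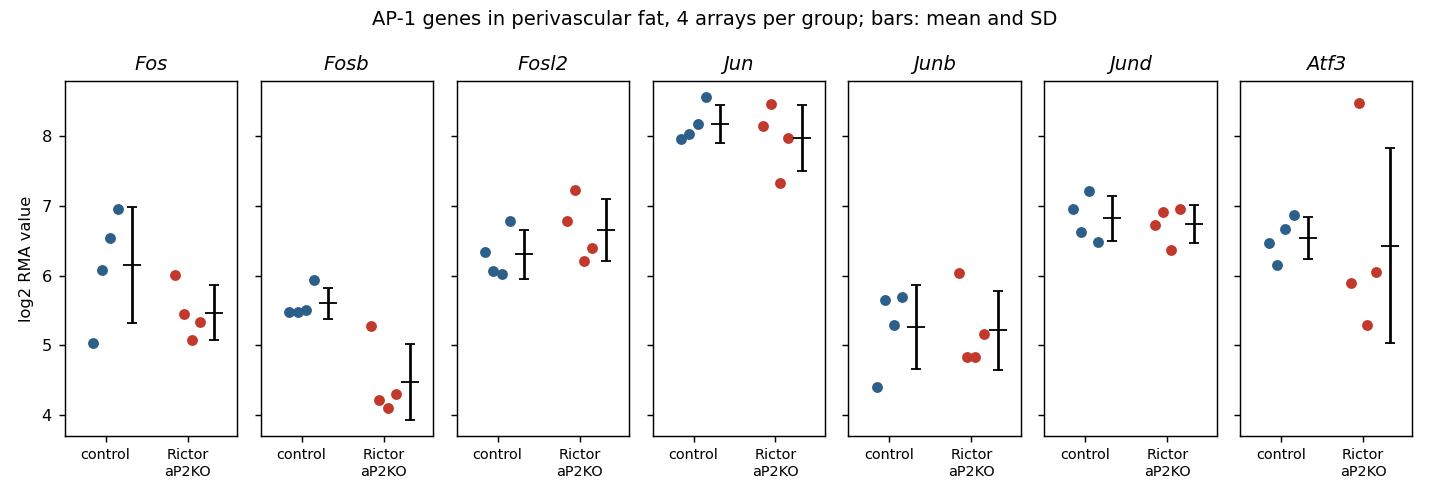
Log2 RMA values (vertical axis) of the 7 AP-1 genes in the 4 control arrays (blue) and the 4 RictoraP2KO arrays (red), with the mean and SD of each group as black bars. Fosb is the gene whose groups do not overlap, from 5.48 to 5.94 in control and from 4.10 to 5.28 in RictoraP2KO, and the Atf3 value of 8.47 belongs to RictoraP2KO replicate 2.

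Among the Fos genes, Fosb encodes a Fos protein whose splice form delta-FosB accumulates on repeated stimulation. Its signal was 5.28, 4.22, 4.10 and 4.30 in RictoraP2KO replicates 1 to 4 and 5.48, 5.48, 5.51 and 5.94 in control replicates 1 to 4. All 4 RictoraP2KO values lay below the lowest control value, with a gap of 0.19 that RictoraP2KO replicate 1 alone set. The means of 4.48 ± 0.54 and 5.604 ± 0.22 (SD, n = 4) were apart by -1.13 (SE 0.247, 95% interval -1.69 to -0.57), or 2.18-fold lower. It did not pass over all probe sets (limma adjusted p = 0.605, unadjusted p = 0.00142, exact two-sided permutation p = 0.0286), and Fosb ranked 26 of 18782 genes by unadjusted p. Without RictoraP2KO replicate 1 the difference was -1.39 and passed (limma adjusted p = 0.0234), 1 of 5 probe sets to pass there. Over the other 7 omissions the limma adjusted p ran from 0.431 to 0.845. RictoraP2KO replicate 1 was also the array with the lowest brown fat markers, and their part in the Fosb difference was not tested.

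Fos, the founding member of its subfamily, was at 6.005, 5.46, 5.08 and 5.34 in RictoraP2KO and at 5.03, 6.07, 6.55 and 6.95 in control. The lowest of all 8 values belonged to control replicate 1, so the groups overlapped, while the other 3 control arrays lay above every RictoraP2KO array. The means of 5.47 ± 0.39 and 6.15 ± 0.83 (SD, n = 4) were apart by -0.68 (SE 0.380; limma adjusted p = 0.750), with an interval from -1.54 to 0.18. Over the 8 omissions of 1 array the difference ran from -1.05, without control replicate 1 (limma adjusted p = 0.706), to -0.41, without control replicate 4 (limma adjusted p = 0.853). Without control replicate 1 the groups did not overlap, as for 6.78% of all genes at that size.

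Fosl2, which encodes Fra-2 and which lacks the activation domain of Fos, was at 6.78, 7.22, 6.21 and 6.40 in RictoraP2KO and at 6.34, 6.06, 6.03 and 6.78 in control. It was highest in RictoraP2KO replicate 2, the array with muscle signal, and the groups overlapped widely. The difference was 0.35 (SE 0.239; limma adjusted p = 0.789, interval -0.19 to 0.89), and it turned to -0.10 without the 3 arrays that carried signal of other tissues. For Fosl1, which encodes Fra-1, one probe set shared with Ccdc85b had means of 2.57 in RictoraP2KO and 2.65 in control, and the other 3.24 and 3.18. All lay below the array median of 3.76, and the differences were -0.08 and 0.06.

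Among the Jun genes, Jun encodes the main partner of Fos. It was at 8.14, 8.46, 7.33 and 7.97 in RictoraP2KO and at 7.96, 8.03, 8.17 and 8.56 in control. The value of RictoraP2KO replicate 3 stood below the 7 others, and the rest of the 2 groups covered nearly the same range. The difference was -0.20 (SE 0.230; limma adjusted p = 0.866, interval -0.72 to 0.32), and 0.01 without RictoraP2KO replicate 3.

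Junb, a weaker activator that can oppose Jun, was at 6.03, 4.84, 4.84 and 5.16 in RictoraP2KO and at 4.41, 5.64, 5.30 and 5.70 in control. Its highest value was in RictoraP2KO replicate 1 and its lowest in control replicate 1, so the spread lay within the groups and not between them. The difference was -0.05 (SE 0.342; limma adjusted p = 0.984, interval -0.82 to 0.73). Jund, the Jun gene that is expressed steadily in most tissues, was at 6.73, 6.91, 6.37 and 6.96 in RictoraP2KO and at 6.96, 6.63, 7.21 and 6.49 in control. It varied least of the members, and its difference was -0.08 (SE 0.180; limma adjusted p = 0.944, interval -0.49 to 0.33).

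Atf3, a stress-induced ATF protein that pairs with Jun and often represses, was at 5.90, 8.47, 5.30 and 6.05 in RictoraP2KO and at 6.47, 6.15, 6.67 and 6.86 in control. RictoraP2KO replicate 2 was far above the other 7 arrays, while the other 3 RictoraP2KO arrays were the 3 lowest of all. The means of 6.43 ± 1.40 and 6.54 ± 0.30 (SD, n = 4) were apart by -0.11 (SE 0.592; limma adjusted p = 0.981, interval -1.45 to 1.23). Without RictoraP2KO replicate 2 the difference was -0.79 and the groups did not overlap (limma unadjusted p = 0.00641, adjusted p = 0.813), as for 6.07% of all genes at that size. Without the 3 arrays with signal of other tissues it was -0.92 (limma adjusted p = 0.969), again with no overlap, but among the 5 arrays then left 19.2% of all genes do not overlap.

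**Figure D2:**
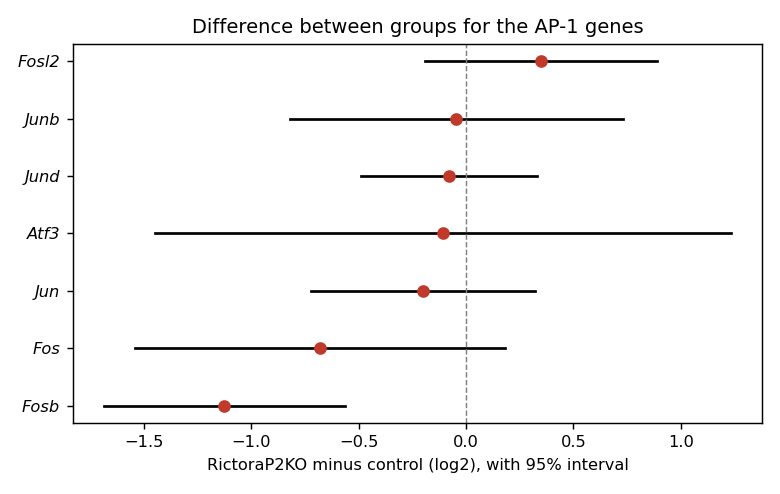
Difference RictoraP2KO minus control on the log2 scale (horizontal axis) for each AP-1 gene, with the 95% interval of the limma fit as a line and 0 as a dashed line. The interval leaves out 0 for Fosb only, from -1.69 to -0.57, and is widest for Atf3, from -1.45 to 1.23.

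Spread between arrays of the same group was large for the whole family. The SD within groups was above the median of all genes, 0.13, in 7 of 7 members. It was 1.01 for Atf3, higher than in 99.7% of genes, 0.65 for Fos, higher than in 99.1%, and 0.58 for Junb, higher than in 98.7%. Fosb (0.42), Fosl2 (0.40) and Jun (0.39) each exceeded more than 95% of genes, at 96.6%, 96.2% and 95.9%, and Jund, the steadily expressed member, stood at 0.30, higher than in 91.5%. Rictor, for comparison, had an SD within groups of 0.07, higher than in 12.9% of genes. These shares are over all 18782 genes, including those below the array median, while all 7 members had means above it. Shares among genes of like level were not computed.

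The members did not all vary in step. Over the 8 arrays, 15 of the 21 pairs had a Pearson r above 0, with a median of 0.30. The closest pairs were Jun with Atf3 (r = 0.76, exact permutation p = 0.0443; Spearman rho = 0.76, exact permutation p = 0.0368) and Fos with Junb (r = 0.74, exact permutation p = 0.0405; rho = 0.76, exact permutation p = 0.0368). Adjusted over the 21 pairs, 0 passed, and the smallest adjusted p from the exact permutation of the arrays was 0.338, with 2 pairs at an unadjusted p under 0.05. With the 2 arrays farthest from the median of the first gene left out, r was 0.86 for Jun with Atf3 and 0.91 for Fos with Junb. With each value taken relative to the mean of its group, r was 0.78 and 0.84. Among 10411 genes at or above the array median, 0.557% had an r with Jun as high as that of Atf3 and 2.41% an r with Atf3 as high as that of Jun. The shares were 1.88% with Fos and 4.90% with Junb for the other pair.

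Fos and Fosb had r = 0.72 (exact permutation p = 0.0563; rho = 0.62). With control replicates 3 and 4, the arrays farthest from the median of Fos, left out, r was 0.47. Without control replicate 1 it was 0.96 and passed over the 21 pairs (exact permutation adjusted p = 0.00833). In that setting the groups overlapped for neither gene, so this r also holds the difference between the groups. Relative to the group means over all 8 arrays, r was 0.61. Fosl2 had r = 0.67 with Atf3 and 0.61 with Jun, and these values were -0.27 and 0.18 without RictoraP2KO replicate 2 and control replicate 4, the arrays farthest from the median of Fosl2. Fos and Jun had r = 0.64 (exact permutation p = 0.0808; rho = 0.81, exact permutation p = 0.0218), while r was -0.20 for Junb with Atf3 and -0.03 for Fos with Jund.

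**Figure D3:**
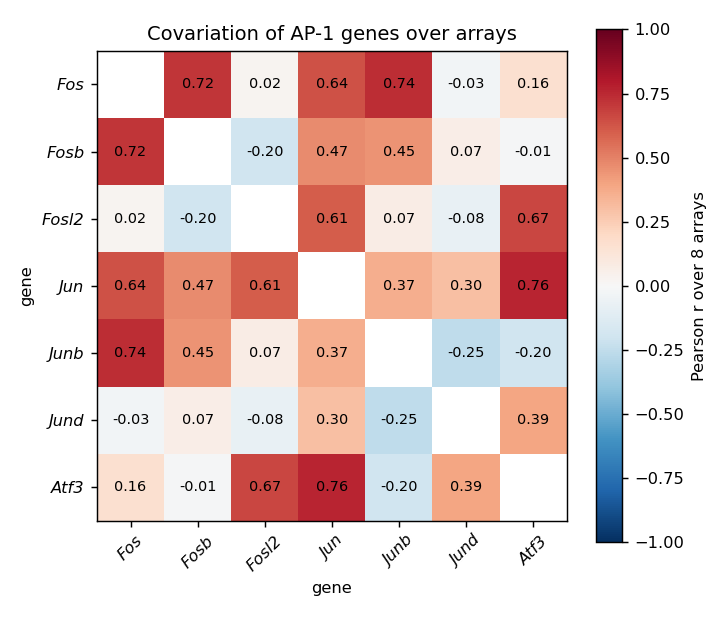
Pearson r over the 8 arrays between each pair of the 7 AP-1 genes, in colour from -1 (blue) to 1 (red) with the value printed in each cell. Fos with Junb (0.74) and Jun with Atf3 (0.76) are the darkest cells, and the highest r of Jund is 0.39, with Atf3.

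Junb followed Egr1 and Btg2, a pair of other early genes, from array to array. The list of other immediate early genes holds 23 measured genes such as Egr, Nr4a and Klf genes, and comparing it with the members gave 161 pairs, a comparison added after the pairs of members had been computed. Of these, 22 had an unadjusted p under 0.05 and 2 passed (exact permutation of the arrays with Benjamini-Hochberg adjustment over the 161 pairs), and both involve Junb. The share of all genes that reach these levels with each member was not computed. With Junb, 17.8% of genes at or above the array median had an r above 0.5, the largest such share among the 7 members. Junb with Egr1, a zinc finger factor induced by the same signals, had r = 0.96 (exact permutation p = 0.000273, adjusted p = 0.0319) and rho = 0.98 (exact permutation p = 0.000397, adjusted p = 0.0319). Junb with Btg2, an antiproliferative early gene, had r = 0.91 (exact permutation p = 0.000397, adjusted p = 0.0319) and rho = 0.95 (exact permutation p = 0.00114, adjusted p = 0.0612). Without RictoraP2KO replicate 1 and control replicate 1, the arrays with the highest and lowest Junb, r was 0.96 for Egr1 and 0.85 for Btg2, and relative to the group means it was 0.96 and 0.91. Over the 8 omissions of 1 array r ran from 0.95 to 0.98 for Egr1 and from 0.86 to 0.95 for Btg2, and the Egr1 pair passed in 1 of 8 omissions, that of RictoraP2KO replicate 1, and the Btg2 pair in 0. With 7 arrays the smallest p the exact permutation test can give is 0.000198, so over 161 pairs little short of that can pass. Not every lost call was close to this limit. Without control replicate 1 the exact permutation p was 0.00417 for Egr1 and 0.00794 for Btg2, with the lowest r of each pair over the omissions. The pairs called under omission were not the same ones, since 4 of the 5 calls were of Fos, with Egr3 once, Ier2 in 2 omissions and Ier5 once, and 1 was of Junb.

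Egr1 was at 8.62, 7.16, 7.24 and 7.65 in RictoraP2KO and at 6.19, 8.19, 8.02 and 8.80 in control. Btg2 was at 8.72, 7.80, 7.08 and 8.35 in RictoraP2KO and at 6.82, 8.44, 8.19 and 8.66 in control. For both, as for Junb, control replicate 1 was the lowest of the 8 arrays, and control replicate 4 and RictoraP2KO replicate 1 were the 2 highest. Between the groups the differences were -0.13 (SE 0.542; limma adjusted p = 0.974) for Egr1 and -0.04 (SE 0.453; limma adjusted p = 0.992) for Btg2.

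**Figure D4:**
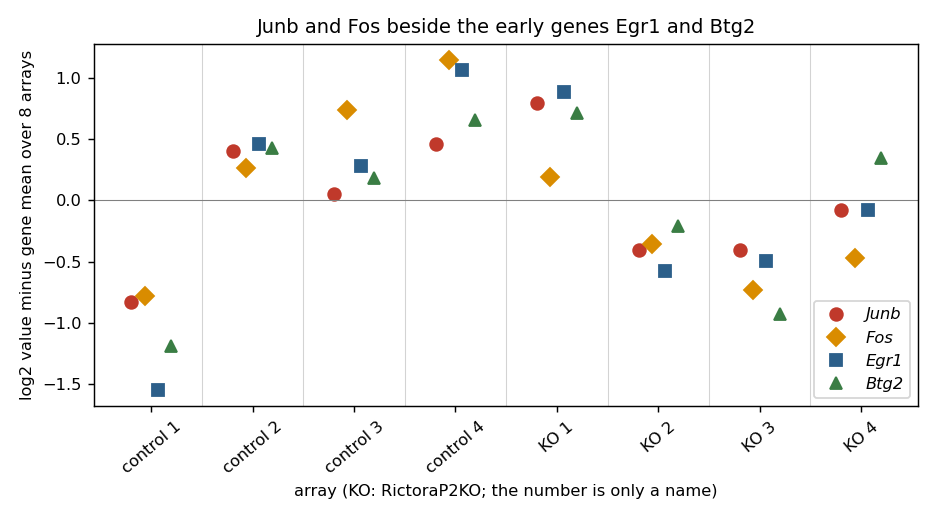
Log2 value minus the mean of that gene over the 8 arrays (vertical axis) for Junb, Fos, Egr1 and Btg2 in each array. All 4 genes are lowest in control replicate 1 and above their means in control replicates 2 to 4 and RictoraP2KO replicate 1.

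For Fos the highest r with an early gene was 0.88 for Egr3 (exact permutation p = 0.00283, adjusted p = 0.114; rho = 0.93), followed by 0.88 for Ier2 (adjusted exact permutation p = 0.165; rho = 0.98, adjusted p = 0.0319) and 0.83 for Egr1 (adjusted exact permutation p = 0.261; rho = 0.83). Whether these values of r differ from those of Junb was not tested. Fosb had its highest r with Gadd45b, which encodes a stress sensor (r = 0.86, adjusted exact permutation p = 0.303; rho = 0.67). Both genes had lower means in RictoraP2KO, and relative to the group means this r was 0.63, below those of Fosb with Egr3 (0.77) and Egr2 (0.75). Jun was nearest to Nr4a1 (r = 0.85), an orphan nuclear receptor, but this r was 0.25 without RictoraP2KO replicate 3 and control replicate 4. Over the 23 early genes the median r was 0.48 with Jun, 0.34 with Junb, 0.30 with Fos, 0.29 with Fosl2, 0.25 with Atf3, 0.19 with Fosb and 0.07 with Jund, where over all genes at or above the array median it lay between -0.05 and 0.03 for each member. An r above 0.5 was found for 11 of 23 early genes with Jun, against 6.98% of all such genes, for 8 of 23 with Fos, against 11.3%, for 7 of 23 with Junb, against 17.8%, and for 4 of 23 with Fosb, against 15%.

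The mean over early genes was lowest in RictoraP2KO replicate 3 and highest in control replicate 4. The mean of the 7 AP-1 genes relative to all arrays was 0.14, 0.24, -0.67 and -0.25 in RictoraP2KO and -0.18, 0.02, 0.22 and 0.48 in control. The mean of the 23 other early genes was 0.15, 0.07, -0.42 and 0.08 in RictoraP2KO and -0.25, -0.01, 0.03 and 0.34 in control. The groups overlapped in both. The part of handling and dissection in this variation was not tested.

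Atf3 had the largest SD over the 8 arrays, 0.94, and was used to find the genes most like a member. The 8 genes with the highest r were Emd, Impact, Chka, Tpm1, Rrp9, Gabarapl1, Plk3 and Nfx1, with r between 0.92 and 0.96 over 8 arrays. Plk3, a stress-responsive kinase, spanned 4.79 in RictoraP2KO replicate 3 to 7.33 in RictoraP2KO replicate 2, the same arrays that held the lowest and highest Atf3. Without RictoraP2KO replicate 2 the r of these 8 genes lay between 0.77 and 0.87. The 4 genes with the lowest r were Mycbp (-0.98), Ccni (-0.96), Tor4a (-0.95) and Ccdc6 (-0.95). All were chosen by r among genes at or above the array median, so no p is given.

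Markers of other tissues stood high in the array with the highest Atf3. In RictoraP2KO replicate 2 the summed level of 6 skeletal muscle markers was 27.9, where the lowest RictoraP2KO array had 18.4 and the control arrays 18.8 to 19.7, and 3 of these 6 markers had means below the array median. The sum of 5 cardiac muscle markers was 44.5 there, against a range from 28.3 to 38.4 in control and a lowest RictoraP2KO value of 26.3, that of replicate 1. Relative to all arrays the cardiac mean was -1.575, 2.08, -0.715 and 0.088 in RictoraP2KO replicates 1 to 4, with Atf3 at 5.90, 8.47, 5.30 and 6.05. In control replicates 1 to 4 it was 0.32, 0.86, -1.158 and 0.104, with Atf3 at 6.47, 6.15, 6.67 and 6.86. The part of any of these markers in the Atf3 values was not tested.

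**Figure D5:**
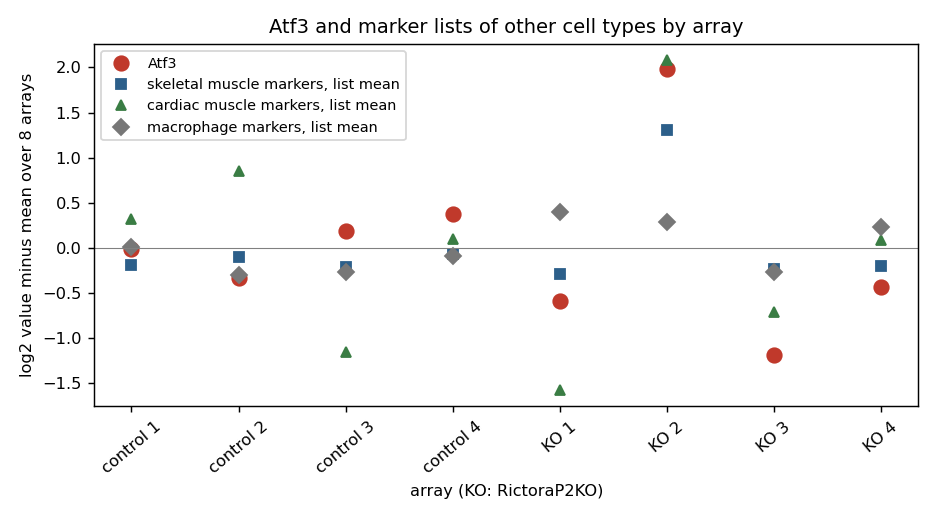
Atf3 (red circles) and the mean of marker lists for skeletal muscle, cardiac muscle and macrophages, each as log2 value minus its mean over the 8 arrays (vertical axis), by array. RictoraP2KO replicate 2 holds the highest Atf3 and the highest skeletal (1.30) and cardiac (2.08) values.

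Markers of immune cells had higher means in RictoraP2KO, where Fosb was lower. All 8 macrophage markers were higher in the mean, 3 of them at an unadjusted p under 0.05, where 2.92% of all genes are higher at that level, and 0 past the adjusted threshold (limma). Their summed level overlapped between the groups, from 50.1 to 55.4 in RictoraP2KO and from 49.8 to 52.3 in control. The 5 neutrophil markers were also all higher in the mean, 3 of them at an unadjusted p under 0.05, with a summed level from 15.4 to 17.8 against 14.1 to 14.9. The groups did not overlap in this sum, but singly 0 of the 5 markers were without overlap, as against 3.57% of all genes. Of the 5 markers, 4 lay below the array median. The summed level of the 6 T cell markers overlapped, from 18.8 to 22.5 against 18.3 to 19.4, with 5 of 6 below it. All 6 were higher in the mean, 2 at an unadjusted p under 0.05, and 1, Cd4, was without overlap. The 5 B cell markers were all higher in the mean, with sums that overlapped, from 18.9 to 24.3 against 18.8 to 21.7. RictoraP2KO replicate 2 had the highest neutrophil, T cell and B cell means of all arrays. Relative to all arrays the macrophage mean was 0.397, 0.284, -0.262 and 0.227 in RictoraP2KO replicates 1 to 4. In control replicates 1 to 4 it was 0.012, -0.301, -0.267 and -0.089. The part of these immune cells in the Fosb difference was not tested.

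The other genes of the pathway were read from lists, none of which held a gene past the adjusted threshold. Over all genes, 6.48% had an unadjusted p under 0.05 (limma) and the median difference was -0.0080. The share of all genes above or below 0 was not computed. Among 20 measured partners and relatives with the same DNA-binding fold, 10 were above and 10 below 0, 0 had an unadjusted p under 0.05 and the median difference was 0.02. Crem, a relative of CREB that yields the early repressor ICER, differed by 0.29 (SE 0.135), Maf by 0.21 (SE 0.107) and Batf3, a partner of Jun in immune cells, by 0.14 (SE 0.074), with limma adjusted p-values from 0.709 to 0.732. Crem was highest in RictoraP2KO replicate 2, at 5.84, as Atf3 was.

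Of the 20 measured MAP kinase genes that signal to AP-1, 15 were below 0, with a median difference of -0.05, and 1 had an unadjusted p under 0.05, a share near the 6.48% of all genes. That gene was Map2k5, the activator of the kinase ERK5, at -0.17 (SE 0.068; limma adjusted p = 0.668). Rps6ka3, a kinase downstream of ERK, differed by 0.18 and Map2k2, an activator of ERK, by -0.15. Among 6 measured genes of SRF and its partners, which drive early genes, 0 had an unadjusted p under 0.05 and the median was 0.05, with Mrtfb at -0.11, Elk4 at 0.10 and Elk1 at 0.12.

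Of the 10 dual-specificity phosphatases, which switch MAP kinases off and are themselves early genes, 8 were above 0 and 0 had an unadjusted p under 0.05. Dusp7 differed by -0.17, Dusp6 by 0.23 and Dusp8 by 0.45 (SE 0.406), and Dusp8 too was highest in RictoraP2KO replicate 2, at 6.09. For 8 measured coactivators and stability factors of AP-1 the median was 0.01, with Cops2 at -0.09, Cops5, the Jun-binding subunit of the signalosome, at 0.13 and Ncoa1 at 0.09.

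In the list of 23 other immediate early genes, 13 were below and 10 above 0. Of the 23, 1 had an unadjusted p under 0.05, where 6.48% of all genes did. Gadd45b was at 5.28, 4.14, 4.14 and 3.87 in RictoraP2KO and at 5.99, 6.19, 4.57 and 6.12 in control. Control replicate 3 lay among the RictoraP2KO values, so the groups overlapped, and as for Fosb RictoraP2KO replicate 1 was the highest of its group. The difference was -1.36 (SE 0.412; limma adjusted p = 0.651). Klf2 differed by 0.29 and Ier2, which followed Fos over the arrays, by -0.45.

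Among genes that AP-1 is known to act on, 0 passed the adjusted threshold. Of 23 measured target genes 19 were above 0, with a median difference of 0.10 against -0.0080 over all genes. Of the 23, 1 had an unadjusted p under 0.05, where 6.48% of all genes did. The median difference of the target genes ran from 0.05 without RictoraP2KO replicate 2 to 0.19 without RictoraP2KO replicate 3. Mmp9, a matrix protease also made by neutrophils and macrophages, had means of 5.70 ± 0.34 in RictoraP2KO and 5.24 ± 0.24 in control (SD, n = 4), apart by 0.46 (SE 0.176; limma adjusted p = 0.668). The cell cycle inhibitor gene Cdkn1a differed by 0.27 and Tnc, which encodes the matrix protein tenascin C, by 0.30. The higher macrophage and neutrophil sums given above stood in the same arrays, and their part in these values was not tested.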

How the data were processed

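The authors deposited 1 table of log2 values, for which the submitters' processing notes name RMA and Affymetrix Power Tools 1.10.2, from 5 µg of total RNA per sample per the labels' protocols. Other settings are not stated there. The deposited values ran from 1.04 to 12.5 with a median of 3.76 in every array, so a change in total RNA would not be seen. The number of arrays limits the precision.

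Gene names came from the platform's annotation (1 symbol for 21158, several for 1881, none for 5332), and each gene was read from its probe set with the highest mean. RictoraP2KO was compared with control with limma 3.58.1 in R 4.3.3 (lmFit, eBayes, two-sided, Benjamini-Hochberg over all 28371 probe sets, threshold 0.05). The code was run on simulated arrays with independent noise, and its recovery of differences of the size seen for Fosb is not given here. Single values and correlations were tested by exact two-sided permutation, with 40320 pairings of arrays. Promoters came from RefSeq. The members and lists were chosen with earlier results of these data known, and no list was tested as a set. Named were the members, Rictor, of each list the 3 genes with the smallest p where none passed, the 8 genes most and 4 least like the member with the largest SD, and genes of the early pairs; Ucp1, Cidea, Gadd45b beside Fosb and those early pairs were picked after values were seen, as was the TGACATCA motif. Of 222 list entries 201 were measured. Alternatives were other normalisations, variance models, filters, thresholds, the replicate block and arrays left out.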

Additional observations from a re-analysis of the deposited data

Results flagged for a closer look

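In groups of 4 arrays, a value was picked out where its gap to the nearest other array, divided by the range of the group, was above 0.829. A total of 64 groups were examined and 8 values were picked out, where chance gives about 1 in 20 groups. For Fosb, RictoraP2KO replicate 1 was at 5.28 with the others of its group between 4.10 and 4.30, and control replicate 4 was at 5.94 with the others between 5.48 and 5.51. The mean of the other immediate early genes was -0.42 in RictoraP2KO replicate 3, against 0.07 to 0.15 in the rest of that group. Among marker lists, the adipocyte mean was 0.28 in RictoraP2KO replicate 1, the skeletal muscle mean 1.30 in RictoraP2KO replicate 2, the lung epithelial mean 3.24 in control replicate 2, and the fibroblast and neuron means -0.20 and 1.23 in control replicate 3. The Atf3 value of RictoraP2KO replicate 2 was not picked out, with the other 3 arrays of that group between 5.30 and 6.05.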

How the results depend on the processing

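Over the 8 omissions of 1 array Fosb ran from -1.39 to -1.0015, Fos from -1.05 to -0.41 and Fosl2 from 0.16 to 0.51. With array weights Fosb was -1.18 and Fos -0.78, while the replicate block, the other variance models, the filter and median centring cannot move these estimates. In those omissions Jun ran from -0.36 to 0.0133, Junb from -0.33 to 0.10, Jund from -0.19 to 0.0492 and Atf3 from -0.79 to 0.27, so their sign was not settled. Without the 3 arrays that carried signal of other tissues, Fosl2 was -0.10, Junb 0.29, and 2 of 7 members did not overlap between groups, Fosb and Atf3, where 19.2% of all genes do not; correlations were not run there, since 5 arrays remained. Over the omissions 0 to 1 members passed the adjusted threshold, where 0 to 5 of all probe sets did. The groups did not overlap for 1 to 2 members. It was 2 without RictoraP2KO replicate 2 and without control replicate 1, where 6.07% and 6.78% of all genes do not overlap. Between 0 and 1 pairs of members passed, and 0 to 2 of the 161 pairs with early genes passed, mostly pairs of Fos. With Spearman's rho 2 of these pairs passed, Junb with Egr1 and Fos with Ier2 (adjusted exact permutation p = 0.0319 for both), and Junb with Btg2 did not (0.0612). With the replicate block Fosb differed by -1.13 (limma adjusted p = 0.820) and 0 members passed. Deviations of same-numbered arrays correlated between -0.17 and 0.05. The labels do not say whether the numbers pair the arrays, and these correlations over all genes cannot settle it. Taking the mean over all probe sets of a gene changed no member, since each had 1.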
